A study of Mus musculus with 62 samples.

Results

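The hippocampus of male Ts65Dn;Brwd1+/- mice was compared with that of male euploid mice, to ask how expression in trisomic animals differed from euploid after one Brwd1 allele had been removed. A gene that differed here need not have differed in Ts65Dn. The comparison used 14 of the 62 libraries of the series. These were 6 of the 8 libraries labelled male Ts65Dn;Brwd1+/- and all 8 libraries labelled male euploid, each from the hippocampus of one mouse of 6 weeks. The libraries T35 and B138 carry the label Ts65Dn;Brwd1+/- but had triplicated genes at the euploid level, and they were left out on that ground. The 6 libraries were thus chosen by the measured levels of the triplicated genes. In males these are described here without a test, except for Brwd1 relative to the others, while genes elsewhere in the genome were tested.

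All animals were on a DBA/2J x B6EiC3Sn/J background. Ts65Dn mice carry a small extra chromosome made of the distal part of mouse chromosome 16 and the proximal part of chromosome 17, and the euploid mice carry the normal set. Ts65Dn;Brwd1+/- mice have the extra chromosome and a mutant allele, repro5, at one of their copies of Brwd1, present in every cell from conception. The 47 adult libraries also hold 7 male Ts65Dn animals and 8 females of each genotype, and the other 15 libraries are embryonic. The part of chromosome 17 that is triplicated has no counterpart on human chromosome 21, which limits the strain as a model of Down syndrome.

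Genes present in an extra copy are often transcribed more. The paper cites studies in which the expression of trisomic genes did not simply follow their dose. Genes outside the extra segment can change as a consequence of the extra copies, through the factors that the segment encodes or through altered cell numbers. Brwd1 is a bromodomain and WD40 repeat protein that binds chromatin, and its gene lies in the triplicated part of chromosome 16.

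Reads assigned to genes came to 35.6 to 109.8 M in the 6 Ts65Dn;Brwd1+/- libraries and 38.5 to 94.9 M in the 8 euploid libraries. Some libraries used for reference went against their labels. In male Ts65Dn B145, as in female Ts65Dn;Brwd1+/- B136, the triplicated genes were at the euploid level. Male Ts65Dn B88 had Xist, which only females transcribe, at 8.90 log2 CPM (the count scaled to library size, on a log2 scale), against at most 0.78 in the other males. Female euploid B85 had Xist at -0.44 log2 CPM, against at least 7.63 in the other females. Each library is one animal, so p-values measure the spread between animals, and in tissue RNA a lower number of cells of a type and a lower amount of RNA per cell cannot be told apart.

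Of the triplicated genes, 131 had enough reads to be tested, 91 on chromosome 16 and 40 on chromosome 17. A further 50 on chromosome 16 and 17 on chromosome 17 are in the count table but were too low. Dosage was read per library as the median, over the tested segment genes, of the log2 ratio to the euploid mean. It was lowest at 0.51, with a median of 0.58 and a highest value of 0.61, in the 6 Ts65Dn;Brwd1+/- libraries, and it ran from -0.02 to 0.02 in the 8 euploid libraries. The library just inside the rule, B24, had 0.51, and those just outside it, B138 and T35, had 0.04 and 0.03. Chromosomes 16 and 17 gave medians of 0.57 ± 0.04 (SD, n = 6) and 0.56 ± 0.04 (SD, n = 6). The dosage plot places the 6 libraries with the trisomic animals of both sexes.

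**Figure D1:**
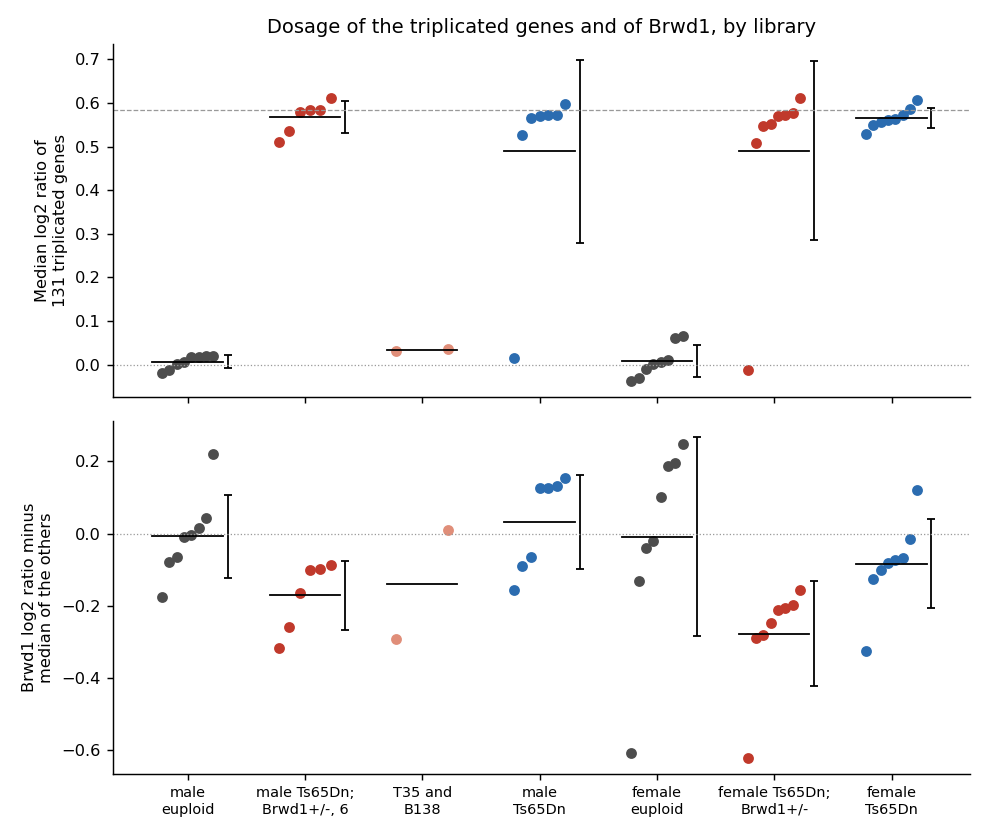
Top, median log2 ratio of the 131 tested triplicated genes to the euploid mean of the same sex; bottom, log2 ratio of Brwd1 minus the median of the other triplicated genes. Each point is a library, black lines are group means, bars are SD, the dotted line is 0 and the dashed line is 3 copies over 2; the 6 male Ts65Dn;Brwd1+/- libraries lie between 0.51 and 0.61 in the top panel and below 0 in the bottom panel.

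Brwd1 (chromosome 16, 95992089 to 96082703, mm10) was the gene whose dose the cross was made to lower. Its level was 6.60 log2 CPM in the lowest euploid library, 6.74 at the median and 6.98 in the highest, and 7.05, 7.17 and 7.25 in Ts65Dn;Brwd1+/-. All 6 libraries lay above the highest euploid library, with a log2 fold change of 0.39 (standard error 0.05), or 1.31-fold. Brwd1 is itself triplicated, and levels of triplicated genes chose the 6 libraries, so this is a description. With T35 and B138 included the log2 fold change was 0.28 (edgeR adjusted p = 0.208). By qPCR of embryonic forebrain, another tissue and age, the paper reports that the cross rescued the Brwd1 triplication of males. In male Ts65Dn, Brwd1 ranged from 6.93 to 7.46 log2 CPM around a median of 7.24, and it was 6.50 and 6.79 in B138 and T35. Of the 131 tested segment genes, 24 had a smaller log2 fold change than Brwd1, and of the 51 with a mean of at least 5 log2 CPM only 6 did.

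Since the dosage of the segment chose the libraries, Brwd1 was tested against the other segment genes of its own library. The log2 ratio of Brwd1 minus their median was -0.17 ± 0.10 (SD, n = 6) in male Ts65Dn;Brwd1+/-, -0.01 ± 0.11 (SD, n = 8) in euploid and 0.03 ± 0.13 (SD, n = 7) in Ts65Dn males. It was lower than in euploid (difference -0.16, p = 0.00866 in a 2-sided exact permutation test, 0.0173 after adjustment for the 4 comparisons made) and lower than in Ts65Dn (difference -0.20, exact permutation p = 0.014, adjusted p = 0.0187). The groups overlapped, with 2 of the 6 libraries below every euploid library and 3 of the 6 below every Ts65Dn library. Male Ts65Dn libraries, without the mutant allele, ran from -0.16 to 0.15. Levels of the same segment genes chose the male libraries, so the male p-values are not independent of the rule. In a trisomic animal any triplicated gene that rises less than the segment median gives a negative value, so the comparison with euploid cannot single out the allele. In females, which the rule did not use, the same measure was -0.28 ± 0.15 (SD, n = 8), against -0.01 ± 0.28 in euploid (n = 8, exact permutation p = 0.0298, adjusted p = 0.0298) and -0.08 ± 0.12 in Ts65Dn (n = 8, exact permutation p = 0.00544, adjusted p = 0.0173). Female euploid B125 and female Ts65Dn;Brwd1+/- B176 stood apart at -0.61 and -0.62. The allele or the strain of a read is not given by a gene count, so these values measure all Brwd1 transcripts, mutant ones included.

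The other segment genes were higher almost without exception. Of the 131 tested, 127 had a higher mean in Ts65Dn;Brwd1+/-, and 85 had a Benjamini-Hochberg adjusted p-value under 0.1 in edgeR, which is the threshold for a differentially expressed (DE) gene here and is read as a description for these genes. Over all 16486 genes tested, 1.64% were DE, 0.995% higher and 0.649% lower. Segment genes had a median of 0.55 on the log2 scale, with quartiles at 0.44 and 0.66, and genes outside a median of -0.01. In 71 segment genes the 6 and the 8 libraries did not overlap, while 0.977% of all genes tested separated the groups in this way. Calls were more frequent among highly expressed genes: of the 51 genes with a mean of at least 5 log2 CPM, 49 were DE, and of the 32 under 1 log2 CPM only 2, although their median log2 fold changes were 0.56 and 0.57.

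Among the genes most often discussed in Down syndrome, App, the amyloid precursor, was at 10.8 to 10.98 log2 CPM in euploid libraries and at 11.4 to 11.6 in Ts65Dn;Brwd1+/-. Its log2 fold change was 0.58 (standard error 0.04). Dyrk1a, a kinase dosage-sensitive in brain growth, lay between 6.44 and 6.57 in euploid and between 6.91 and 7.09 in Ts65Dn;Brwd1+/- (log2 fold change 0.46, standard error 0.04). Neither gene overlapped between the groups. Rcan1, an inhibitor of calcineurin, rose from a euploid median of 5.83 to 6.38 log2 CPM, Sod1, the cytosolic superoxide dismutase, from 6.83 to 7.43, and again no library of one group entered the range of the other. The interferon receptor chains Ifnar1, Ifnar2 and Ifngr2 had log2 fold changes of 0.52, 0.63 and 0.66, and Il10rb, shared by receptors for interleukin 10 and interferon lambda, 0.49. All 4 separated the groups.

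Of the 44 tested genes of the list for chromosome 16, 44 were higher and 39 were DE, with a median of 0.57. Purine synthesis was represented by Gart (0.57), synaptic endocytosis by Synj1 (0.57) and Itsn1 (0.41), cell adhesion by Dscam (0.45) and Jam2 (0.58), and mitochondrial energy production by Atp5o (0.65), all on the log2 scale. Kcnj6, a potassium channel subunit, had 0.48 (standard error 0.12) with 3 of 6 libraries above the euploid range, and Grik1, a kainate receptor subunit, 0.71 (standard error 0.13) with 5 of 6 above it. Olig1 and Olig2, factors of the oligodendrocyte lineage that lie next to each other, had smaller values of 0.33 (standard error 0.07) and 0.27 (standard error 0.07). Of the 19 tested genes of the list for chromosome 17, 18 were higher and 14 were DE, with a median of 0.56. They include Arid1b, the subunit of the BAF chromatin remodeler encoded in the segment, at 7.30 to 7.68 log2 CPM in euploid and 7.74 to 8.13 in Ts65Dn;Brwd1+/- (log2 fold change 0.44, standard error 0.07).

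The extremes of the segments were of a few kinds. Among genes with a mean of at least 1 log2 CPM, the largest log2 fold changes belonged to Tmem181c-ps (1.34, standard error 0.44), Bace2 (0.94, standard error 0.38), Donson (0.92, standard error 0.06), Mis18a (0.74, standard error 0.10) and Fndc1 (0.71, standard error 0.29). Donson, a replication fork protein, was measured closely: its 8 euploid libraries lay between 3.72 and 3.99 log2 CPM and its 6 Ts65Dn;Brwd1+/- libraries between 4.64 and 4.95. Its gene model overlaps that of Son, which is also triplicated, and with a library kit that does not mark the strand the reads of the overlap cannot be assigned. Tmem181c-ps, a pseudogene, is one of several close copies of Tmem181 in the segment, and the counts of such copies depend on where their shared reads were placed.

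The smallest values belonged to Clic6 (-0.20, standard error 0.80), Kcne2 (-0.19, standard error 1.03), Tmem181a (-0.18, standard error 0.21), Erg (0.22, standard error 0.09) and Olig2. Clic6 and Kcne2 are made by the epithelium of the choroid plexus, a tissue that lies against the hippocampus and is caught to a varying extent at dissection. Clic6 ran from 0.89 to 6.55 log2 CPM within Ts65Dn;Brwd1+/- and from 2.83 to 6.74 within euploid, and 5 of its 6 Ts65Dn;Brwd1+/- libraries lay within the euploid range. Erg, a factor of endothelial cells, was at 1.95 to 2.39 log2 CPM in euploid and 2.23 to 2.45 in Ts65Dn;Brwd1+/-.

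**Figure D2:**
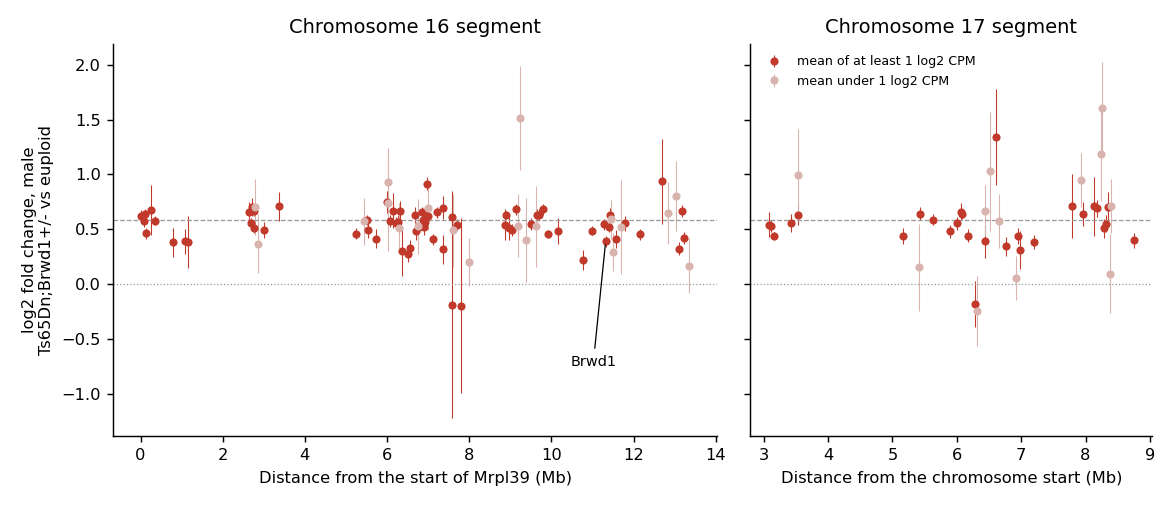
Log2 fold change of each tested triplicated gene in male Ts65Dn;Brwd1+/- (6 libraries) against euploid (8 libraries), by its distance along the segment in Mb; bars are standard errors, the dotted line is 0 and the dashed line is 3 copies over 2. The values lie around a median of 0.55 along both segments, and Brwd1 is marked at 0.39.

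The size of the change was alike along the segments. On chromosome 16 the median log2 fold change was 0.58 in the first 4 Mb (18 genes), 0.57 from 4 to 8 Mb (39 genes), 0.53 from 8 to 12 Mb (26 genes) and 0.55 beyond (8 genes). On chromosome 17 it was 0.55 in the first 6 Mb (12 genes) and 0.61 beyond (28 genes). The borders were set at the start of Mrpl39 and the end of Pde10a. Within 1 Mb outside them lay 3 tested genes, 1 on chromosome 16 and 2 on chromosome 17, and 2 of these, A730009L09Rik (192 kb before the first border) and 1700010I14Rik (1.7 kb after the second, log2 fold change 0.79, adjusted p = 0.0702), were DE and higher. Whether they lie on the extra chromosome cannot be told from counts, and the borders were chosen from general knowledge. Both genes are counted as outside the segments below. If they are triplicated, the rule that chose the libraries also bears on their p-values.

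Females gave a test of the same genes in animals that the rule had not used. All 131 segment genes were tested there in 8 Ts65Dn;Brwd1+/- against 8 euploid libraries, 129 were higher and 45 were DE, with a median log2 fold change of 0.49. Over all 16848 genes tested in females 0.398% were DE. App (log2 fold change 0.62, adjusted p = 0.00285), Ttc3 (0.64, adjusted p = 0.00285), Gart (0.54, adjusted p = 0.00285) and Dyrk1a (0.48, adjusted p = 0.0419) passed the test, while Brwd1 (0.21, adjusted p = 0.602) did not. With the library B136, whose triplicated genes were at the euploid level, left out, 63 segment genes were DE, and with B85 also left out 57.

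Outside the segments, 186 genes were DE between male Ts65Dn;Brwd1+/- and euploid, 79 higher and 107 lower. Most of the changes were small, with a median absolute log2 fold change of 0.28 (quartiles 0.21 and 0.44), against 0.08 over all genes tested outside, and 9 exceeded 1. In 66 of the 186 genes the 6 and the 8 libraries did not overlap, against 90 of the 16355 genes tested outside. The 186 were called on the same values, so part of this separation is built in. Of these genes 170 are annotated as protein-coding and 11 as lncRNA. With DESeq2 in place of edgeR 539 genes outside the segments were DE, 182 of them among the 186. With T35 and B138 included, 52 genes were higher and 50 lower outside the segments, 80 of them among the 186, and the median of the segment genes was 0.44. Leaving out Ts65Dn;Brwd1+/- B51 gave 48 higher and 51 lower, and leaving out euploid B95 gave 124 and 189.

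The 10 higher genes with the smallest p-values were led by A730009L09Rik, a noncoding RNA at chromosome 16, 84515012 to 84526387. It was at most -1.003 log2 CPM in euploid libraries (lowest -3.38, median -1.45) and at least 0.51 in Ts65Dn;Brwd1+/- (median 1.03, highest 1.17). The log2 fold change came to 2.56 (standard error 0.25, adjusted p = 8.85e-06). In B138 and T35 it was -1.24 and -2.61, within the euploid range. The gene lies next to the border chosen for the segment, and its level was low in each male library of these groups with euploid dosage and high in each of the 6 with trisomic dosage.

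Mpc1-ps (chromosome 12, 110858070 to 110858954) is a processed pseudogene of Mpc1, a subunit of the mitochondrial pyruvate carrier, and Mpc1 lies in the triplicated part of chromosome 17. It was at 2.35, 3.01 and 3.26 log2 CPM in euploid (lowest, median, highest) and at 3.76, 3.88 and 3.995 in Ts65Dn;Brwd1+/- (log2 fold change 0.91, standard error 0.10, adjusted p = 3.65e-05), without overlap. For Mpc1 itself the log2 fold change was 0.51 (standard error 0.09). The GENCODE transcript of the pseudogene matches the coding sequence of Mpc1 at 329 of 330 bases. The first 90 bases of both are shown because they hold the 1 difference, in capitals, and show how little separates reads of the gene inside the segment from those of its copy outside it.
Mpc1-ps: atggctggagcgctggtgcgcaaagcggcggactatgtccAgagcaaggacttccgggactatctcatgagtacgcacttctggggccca
Mpc1: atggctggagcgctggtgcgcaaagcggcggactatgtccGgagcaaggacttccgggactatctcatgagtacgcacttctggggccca
Reads of this stretch cannot be assigned to one of the copies unless they cover the capital, so the rise of Mpc1-ps is uncertain as a change outside the segments.

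S100b, a calcium-binding protein of astrocytes, rose from 6.21, 6.37 and 6.46 log2 CPM in euploid to 6.57, 6.64 and 6.75 in Ts65Dn;Brwd1+/- (log2 fold change 0.28, standard error 0.04, adjusted p = 0.00178). Its human ortholog lies on chromosome 21, but in the mouse S100b is on chromosome 10 and is not triplicated. Vsig2, a membrane protein of the immunoglobulin superfamily, had 2.56 to 3.07 log2 CPM in euploid and 3.29 to 3.79 in Ts65Dn;Brwd1+/- (log2 fold change 0.74, adjusted p = 0.000117). Selenov, a selenoprotein, was low in euploid, from -2.42 to -0.55, and lay between 0.41 and 1.32 in Ts65Dn;Brwd1+/- (log2 fold change 1.93, adjusted p = 0.000467). None of these genes overlapped between the groups.

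The other genes of this group were the lncRNA 2900052N01Rik (0.45), the sorting nexin Snx32 (0.31), the snoRNA host gene Snhg20 (0.48), Qpct, which makes the pyroglutamate end of peptides (0.42), and a gene without a symbol in the reference tables (0.80), all log2 fold changes with the 6 libraries above the 8. Several of the higher genes were not at the euploid level in T35 or B138. Selenov was at -0.50 and -0.36 log2 CPM in T35 and B138, against at most -0.55 in euploid, while S100b was above the euploid range in B138 alone (6.59) and Mpc1-ps likewise (3.33). Qpct was at 3.69 and 3.75 log2 CPM in T35 and B138, against at most 3.63 in euploid, and Snhg20 at 3.95 in T35, against at most 3.66. Over the 20 genes listed here and below, 13 had T35 within the euploid range, 13 had B138 within it and 9 had both. These libraries were set beside the same euploid animals that gave the fold changes, and no test was made of them.

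Among the 10 lower genes with the smallest p-values, Cbs came first. Cystathionine beta-synthase is the entry enzyme of transsulfuration, and its human ortholog is also on chromosome 21, while the mouse gene (chromosome 17, 31612623 to 31637233) is outside the triplicated part. It fell from 4.92, 5.02 and 5.20 log2 CPM in euploid to 4.44, 4.58 and 4.71 in Ts65Dn;Brwd1+/- (log2 fold change -0.47, standard error 0.05, adjusted p = 5.13e-05). S100b and Cbs were the only DE genes among the 51 tested human chromosome 21 orthologs that lie outside the segments, and their groups did not overlap. Of all 16355 genes tested outside, 186 were DE.

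Rfx5, the DNA-binding subunit of the RFX complex at major histocompatibility class II promoters, fell from a range of 3.96 to 4.26 log2 CPM to 3.52 to 3.73 (log2 fold change -0.47, standard error 0.06, adjusted p = 0.000198). Thbs4, a secreted thrombospondin, had the largest fall of the 10, from 3.67, 4.14 and 4.87 log2 CPM to 2.74, 2.99 and 3.52 (log2 fold change -1.19, standard error 0.18, adjusted p = 0.00178). With T35 at 4.70 and B138 at 3.89 included it was no longer DE (-0.74, adjusted p = 0.318). Clu, the secreted chaperone clusterin, was abundant and fell by little, from 9.88 to 10.1 log2 CPM in euploid to 9.59 to 9.84 (log2 fold change -0.28, standard error 0.05, adjusted p = 0.0031).

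The rest of the 10 were Plpp3, a lipid phosphatase (-0.23), Dhx37, a helicase of ribosome assembly (-0.33), the sialomucin Podxl (-0.40), the lncRNA Prdm16os (-0.40), P4htm, a prolyl hydroxylase acting on HIF (-0.22), and Pik3r3, a regulatory subunit of phosphoinositide 3-kinase (-0.29). In these 6 log2 fold changes the libraries of the groups were separate, except for Podxl, in which 5 of 6 were below every euploid library. With T35 and B138 included, Clu, Dhx37, Podxl, Prdm16os, Thbs4 and the gene without a symbol were not DE.

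**Figure D3:**
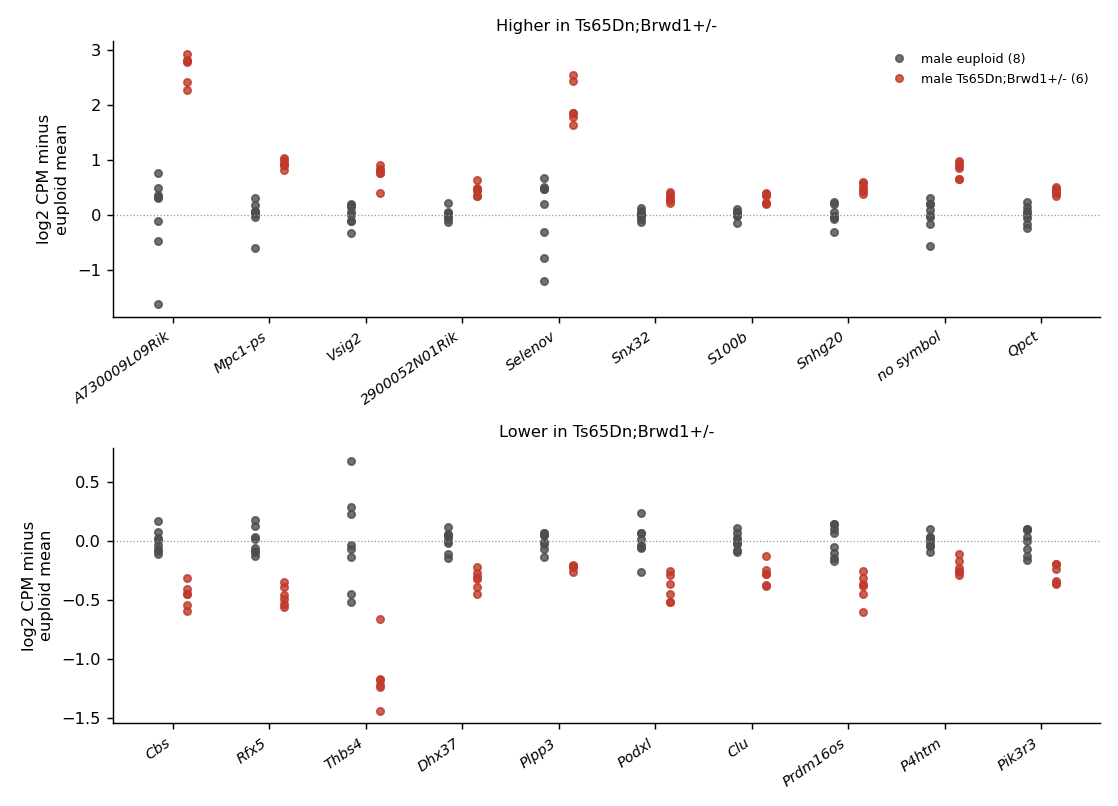
The 10 higher and the 10 lower DE genes outside the segments with the smallest p-values, as log2 CPM of each library minus the mean of the 8 male euploid libraries (gray, 8 points; red, 6 male Ts65Dn;Brwd1+/- libraries). The red points lie outside the gray ones in 19 of the 20 genes.

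The DE genes outside the segments were looked up in females. Of the 186, all tested there, 174 had the same sign, 71 of them at an unadjusted p-value under 0.05, and none had the opposite sign at that level. The 71 genes are 38.2% of the 186. Over all genes tested outside the segments and in females, 62.7% shared the sign and 6.93% shared it at that level. In the female test 11 of the 186 were DE with the same sign. They included A730009L09Rik (log2 fold change 2.20, adjusted p = 0.00285), Rfx5 (-0.64, adjusted p = 0.025), Cbs (-0.48, adjusted p = 0.0282), 2900052N01Rik (0.68, adjusted p = 0.0139), Mpc1-ps (0.64, adjusted p = 0.082) and Vsig2 (0.59, adjusted p = 0.0899). Podxl (0.02, adjusted p = 0.973), Snx32 (0.07, adjusted p = 0.828) and Snhg20 (0.06, adjusted p = 0.912) were not. Selenov (adjusted p = 0.112), S100b (0.333), Thbs4 (0.339), Dhx37 (0.348) and Prdm16os (0.392) also missed the threshold in females. So did Pik3r3 (adjusted p = 0.451), Plpp3 (0.475), the gene without a symbol (0.508), Qpct (0.638), Clu (0.663) and P4htm (0.686). These genes, from Selenov to P4htm, had the same sign in both sexes. Of the 20 genes listed above outside the segments, only those given here as DE passed the female test.

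**Figure D4:**
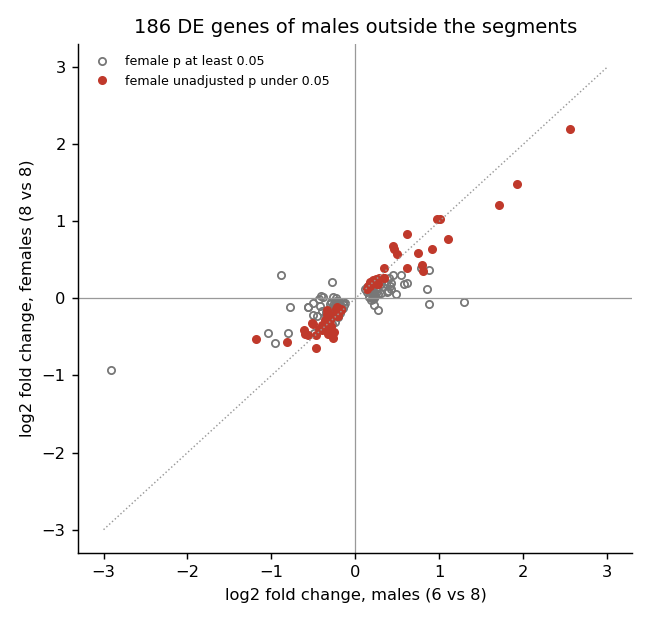
Log2 fold change of Ts65Dn;Brwd1+/- against euploid in males (x axis) and females (y axis) for the 186 DE genes of males outside the segments; filled points have an unadjusted female p-value under 0.05, and the dotted line is equality. Most points, 174 of 186, share the sign of both axes, and the female medians are 0.17 for the 79 higher and -0.17 for the 107 lower genes, against 0.27 and -0.28 in males.

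The difference of the effect between the sexes was tested itself, with 30 libraries and the interaction of sex and genotype. Of 17212 genes edgeR called 0, with 600 at unadjusted p-values under 0.05, and DESeq2 called 1, Ddx3y, a gene of chromosome Y that the library B85 carries. Donson had log2 fold changes of 0.92 in males and 0.48 in females, with an interaction p of 0.000241 in edgeR before adjustment and 1.0 after it.

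The comparison with male Ts65Dn asked which genes moved when one Brwd1 allele was removed from a trisomic animal. Of 16899 genes tested with the 21 male libraries, 0.0% were DE, that is 0 genes in edgeR and 0 in DESeq2, and 1289 genes reached unadjusted p-values under 0.05. With 1, 2 or 3 RUVr factors, which model unwanted variation from the residuals, edgeR called 255, 453 and 757 genes, so the count depended on the factors. The paper normalized with RUVr before DESeq2, without stating the number of factors, and reports a large set of DE genes in this comparison. The absence of calls without factors is therefore not a like-for-like repeat of its result. Leaving out B145 and B88 gave 1 DE gene, Fhl1 (log2 fold change 0.28, standard error 0.05, adjusted p = 0.0735), and leaving out B88 alone gave 3, Fhl1, Scn7a and Gpr149, all higher in Ts65Dn;Brwd1+/-.

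The genes that set Ts65Dn;Brwd1+/- apart from euploid had values in Ts65Dn that are given side by side here, the euploid animals being shared. The 7 Ts65Dn libraries of the fit include B145, whose triplicated genes were at the euploid level, so levels are also given without it. Against euploid, the log2 fold change of Cbs was -0.47 in Ts65Dn;Brwd1+/- and -0.29 in Ts65Dn, and that of Rfx5 -0.47 and -0.35. Without B145, at 5.20 log2 CPM for Cbs and 4.26 for Rfx5, the medians of the other 6 Ts65Dn libraries were 4.64 and 3.60, beside 4.58 and 3.61 in Ts65Dn;Brwd1+/-. Vsig2 had log2 fold changes of 0.74 and 0.70, Selenov 1.93 and 1.85, and S100b 0.28 and 0.25, B145 included. Thbs4 had -1.19 and -0.43, Qpct 0.42 and 0.15 and Clu -0.28 and -0.19. The medians of the 6 Ts65Dn libraries without B145 were 3.54, 3.61 and 9.72 log2 CPM for these genes, beside 2.99, 3.84 and 9.69 in Ts65Dn;Brwd1+/-. Slc4a4 (-0.21 and -0.003), Flt1 (-0.39 and -0.13) and Htr3a (0.55 and 0.14), described below, had smaller values in Ts65Dn and were not DE there. In Ts65Dn against euploid 51 genes were DE and higher outside the segments and 25 lower. How many of the 186 were among them is not given here. For the segments the median log2 fold changes were 0.55 and 0.50, again with B145. Direct differences between these trisomic groups in Thbs4 (-0.75) and Qpct (0.27) did not pass the test.

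The fixed lists of cell types and pathways were described by their members outside the segments, and no list was tested as a set. Of all 16355 genes tested outside, 79 were DE and higher, 107 were DE and lower, and 8562 had a negative log2 fold change. Astrocytes, which take up glutamate and support synapses, had 18 listed genes, all tested. Slc1a2, the main glutamate transporter, fell by 0.23 on the log2 scale, Slc4a4, a bicarbonate transporter, by 0.21, and Sox9, a factor of astrocyte identity, by 0.34 (adjusted p = 0.0817, 0.0608 and 0.0615). S100b rose, and the other 14 did not pass the test. The median over the 18 genes was -0.15, against -0.01 over all genes outside the segments, and 16 of 18 had a negative log2 fold change. The summed level of the list ran from 12.7 to 12.8 log2 CPM in Ts65Dn;Brwd1+/- (median 12.7) and from 12.7 to 12.9 in euploid (median 12.9), with overlap. In females the median was -0.11 and none was DE.

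Endothelial and mural cells, which form the vessels, had 18 listed genes with a median of -0.16. Flt1, a receptor for vascular endothelial growth factor, fell by 0.39 (adjusted p = 0.0199) and Pdgfrb, the receptor that marks pericytes, by 0.31 (adjusted p = 0.0297), and the other 16 did not pass. In females the median had the opposite sign, 0.10, and Flt1 had 0.01. Of 20 microglia genes, Aif1, which encodes Iba1, rose by 0.58 (adjusted p = 0.0539) with the groups separate, from 1.31 to 2.33 log2 CPM in euploid to 2.43 to 2.98. T35 and B138, at 2.65 and 2.67, were also above the euploid range. The median of the microglia list was -0.02. Among 18 markers of GABAergic interneurons Htr3a, a serotonin-gated channel, rose by 0.55 (adjusted p = 0.0214), and the median was 0.11.

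Of 22 markers of hippocampal subfields Trps1, a zinc finger factor, fell by 0.35 (adjusted p = 0.0438), with a median of -0.12. The precursor list of the oligodendrocyte lineage held Olig1 and Olig2 as triplicated members, and Ptprz1, a receptor phosphatase, was DE and lower (-0.22, adjusted p = 0.0711). Of 20 genes of myelin and mature oligodendrocytes none was DE by edgeR, 17 had a positive log2 fold change and the median was 0.11. Neurons themselves, read from Rbfox3 (-0.10), Snap25 (0.00), Slc17a7 (-0.01) and Map2 (-0.01), showed log2 fold changes near 0, none DE.

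The choroid plexus list had the largest median of any list, -0.80 over its 17 genes outside the segments, all negative, yet none was DE, since its levels scatter from library to library. Its summed level ran from 7.69 to 12.3 log2 CPM in Ts65Dn;Brwd1+/- (median 9.40) and from 8.59 to 12.9 in euploid (median 10.8). Ttr, the transthyretin gene that defines this epithelium, had a standard error of 1.25 around a log2 fold change of -1.05. With the summed choroid plexus level as a covariate, a choice made after seeing the data, 69 genes were higher and 118 lower outside the segments, 153 of them among the 186.

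Brwd1 is one of 3 related genes. Phip, on chromosome 9, was lower in Ts65Dn;Brwd1+/-, with 5.73 to 6.11 log2 CPM in euploid and 5.56 to 5.85 in Ts65Dn;Brwd1+/- (log2 fold change -0.24, standard error 0.06, adjusted p = 0.0866), and 2 of 6 libraries were below the euploid range. Brwd3, on the X chromosome, had a value of -0.33 (standard error 0.14, adjusted p = 0.344). In females Phip had -0.13 (adjusted p = 0.86). The BAF chromatin remodeling complex, to which the study relates Brwd1, had 28 tested core subunits. Of the 27 outside the segments none was DE and 3 had a positive log2 fold change, with a median of -0.06. Arid1b was the only DE subunit and is triplicated.

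Among other pathways, the 71 nuclear subunits of oxidative phosphorylation outside the segments had 65 positive log2 fold changes and a median of 0.05, none of them DE, while Atp5o and Atp5j, in the segment, were. Hspa1b, an inducible heat shock protein, was the only DE gene of 24 for protein folding (log2 fold change 0.45, adjusted p = 0.0909). No gene was DE among the 25 activity-regulated immediate early genes, 38 interferon-stimulated genes outside the segments, 76 ribosomal proteins, 21 clock genes, 20 tested genes of neurogenesis and proliferation and 13 GABA-A receptor subunits, with medians of 0.02, 0.10, 0.04, -0.02, -0.09 and -0.04. In the list of 61 synaptic potentiation genes and that of 31 genes of vesicles and endocytosis the DE members, Rps6ka2, Synj1 and Itsn1, are triplicated.

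**Figure D5:**
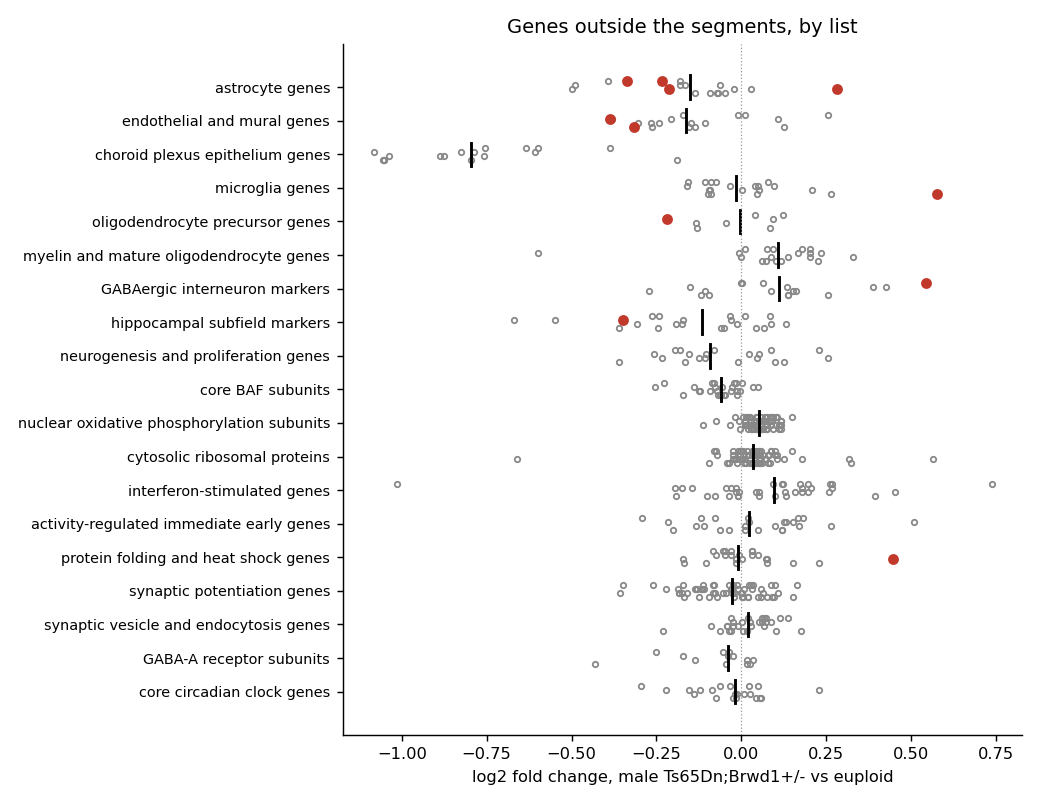
Log2 fold change in male Ts65Dn;Brwd1+/- (6 libraries) against euploid (8 libraries) of the genes of each list outside the segments; red points are DE (adjusted p under 0.1), open points are not, and black bars are list medians. Most lists center near 0, the astrocyte list lies at -0.15 and the choroid plexus list at -0.80 without a DE gene.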

How the data were processed

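Polyadenylated RNA of each hippocampus was sequenced by the authors, with a kit that does not mark strand, and per the labels reads of 2 flow cells were joined. What the authors deposited is a table of raw read counts, not normalized, of 27179 genes by Entrez identifier. The submitters' processing notes name HISAT2 2.1.0 (the methods of the study give a later version), featureCounts 2.0.1 and DESeq2, and positions here are on mm10. The methods of the study also name RUVr normalization of the counts before DESeq2. Positions came from RefSeq for 25275 genes and GENCODE for 18, and 1886 unplaced genes (0.284% of counts) counted as outside the segments. The borders (Mrpl39, from 84718281 on chromosome 16, and Pde10a, to 8986648 on chromosome 17) were chosen from general knowledge.

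Here, genes passing filterByExpr (minimum count 10) received TMM factors and were tested in edgeR 4.0.16 (robust quasi-likelihood test, R 4.3.3), with Benjamini-Hochberg adjustment over all genes at 0.1. Levels are log2 CPM over the 47 adult libraries with a prior count of 0.5. The tests were tested on simulated data. Genes named are Brwd1 and the listed triplicated genes, the 5 largest and 5 smallest segment values, the 10 smallest p-values in each direction outside, and DE list members. Phip is such a member, and Brwd3, the neuron markers and Ttr stand beside it. The members, lists and tests were chosen with earlier results of these data known. Exact permutation tests compared Brwd1. Alternatives were DESeq2 1.42.0, upper-quartile scaling, 1 to 3 RUVr factors, other filters and thresholds, and omitted libraries. The lowest chi-square per degree of freedom between 2 of the 14 libraries was 13.3 (91 pairs), so none repeats another. The embryonic counts were not used here. The precision of counts is set by the depth, here 35.6 to 109.8 M reads assigned to genes.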

Additional observations from a re-analysis of the deposited data

Results flagged for a closer look

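In 92 groups of values, each the level of a list, of Brwd1 or of a named gene in the 6 or the 8 libraries, the library farthest from the others was compared with Dixon's 95% critical value, which chance alone passes in about 1 of 20 groups. 8 passed. In Ts65Dn;Brwd1+/-, B51 had the summed myelin level at 12.07 log2 CPM, against 12.8 to 13.03 in the others, and in euploid B79 had it at 12.04, against 12.6 to 13.1. Vsig2 was 3.29 log2 CPM in B26, against 3.65 to 3.79 in the other 5. In B69 Thbs4 was at 3.52, against 2.74 to 3.02, and Plpp3 at 8.25, against 8.30 to 8.32. Among euploid animals, B122 had the summed clock genes at 11.12 log2 CPM, against 10.8 to 10.9, and B139 had the interferon-stimulated genes at 8.70, against 7.95 to 8.29. B139 also had Mpc1-ps at 2.35, against 2.92 to 3.26 in the other 7. No cause of these values was tested.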

How the results depend on the processing

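No paired analysis was possible because the adult animals carry identifiers of their own, which no 2 groups share. Segment genes chose the libraries, so male Ts65Dn;Brwd1+/- against euploid is counted outside the segments. It gave 186 DE genes (79 higher, 107 lower), 539 (234, 305) with DESeq2, 575 (232, 343), 737 (288, 449) and 971 (394, 577) with 1, 2 and 3 RUVr factors, 89 (41, 48) at an FDR of 0.05, 1975 (838, 1137) at an unadjusted p-value under 0.05, 102 (52, 50) with T35 and B138, and 111 (49, 62) with 3 male genotypes in the fit. All 186 outside genes were DE with each number of RUVr factors. These factors come from the residuals of the same genotype fit, so keeping the calls is largely built in and is no independent check. Leaving out each library gave 99 to 313, with 48 to 124 higher and 51 to 189 lower. Totals moved over 1.5 times without B51 (99), B95 (313), B26 (120), B122 (123) and B69 (52 higher, 61 lower), and the lower count was 69 without B122, 68 without B80 and 62 without B26. Against Ts65Dn, 0 genes became 255, 453 and 757 with 1 to 3 factors, 1289 unadjusted, 3 without B88 and 1 without B145 and B88. In females, 67 DE genes (45 in the segments) became 214 with DESeq2, 1488 (89), 2577 (95) and 3097 (104) with the factors, 1609 (99) unadjusted and 110 without B136. The interaction gave 1 gene with DESeq2 and 600 unadjusted. All 4 tests of Brwd1 kept their sign and side in every alternative tried. Of the 20 genes named outside the segments, 14 were DE in all 24 refits in which they were tested, 6 were lost, all with T35 and B138, and none reversed. The causes were not tested. Of the 32 segment genes under 1 log2 CPM, 2 were called at these depths.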

Other observations

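The genes of this part were chosen after their values had been seen. Neurog2, a proneural factor, was among the largest rises outside the segments, from -1.23, 0.48 and 0.83 log2 CPM in euploid (lowest, median, highest) to 1.34, 2.00 and 2.59 in male Ts65Dn;Brwd1+/- (edgeR log2 fold change 1.71, standard error 0.30, adjusted p = 0.00586). It was also DE in females (1.21, adjusted p = 0.00285) and in male Ts65Dn against euploid (1.56, adjusted p = 0.0266). T35 and B138, whose triplicated genes were at the euploid level, had 0.96 and 1.55 log2 CPM, above every male euploid library. Tubb2a and Tubb2b, beta tubulins, rose by small amounts (0.17 and 0.19, adjusted p = 0.0253 and 0.0397) with the groups separate, and all 8 tested beta tubulin genes had positive values (median 0.12). Over all 16486 genes tested, 7920 were higher and 0.995% were DE and higher. In females neither tubulin was DE (adjusted p = 0.611 and 0.707), and 1 of the 8 genes was lower.

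Dyrk1b (chromosome 7), a paralog of the triplicated kinase Dyrk1a, fell from a euploid range of 5.06 to 5.46 log2 CPM to 4.82 to 5.23, with 5 of 6 libraries below every euploid one (log2 fold change -0.37, standard error 0.08, adjusted p = 0.0226), and in females it was DE as well (-0.37, adjusted p = 0.025). Dcaf7 (chromosome 11), an adaptor that binds Dyrk1a, fell from 8.33 to 8.55 log2 CPM in euploid to 8.12 to 8.29 (log2 fold change -0.22, adjusted p = 0.0142), without overlap. T35 and B138, with Dyrk1a at 6.41 and 6.42 log2 CPM, had Dcaf7 at 8.25 and 8.29, below every euploid library as well, and T35 had Dyrk1b at 5.05, just below the euploid range. In females the value of Dcaf7 was -0.06 (adjusted p = 0.861). Male Ts65Dn against euploid, with B145 included, had -0.20 for Dcaf7 (adjusted p = 0.0129) and -0.21 for Dyrk1b (adjusted p = 0.282).

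A further 6 DE genes were lower. Notch1 and Notch2, receptors of the Notch pathway, fell by 0.32 and 0.28 on the log2 scale (adjusted p = 0.0595 and 0.0637), Id4 by 0.24 (adjusted p = 0.0214) and Pax6 by 0.32 (adjusted p = 0.0114). Gldc, of the glycine cleavage system, fell by 0.30 (adjusted p = 0.083) and Mfge8, a secreted bridging protein for phagocytosis, by 0.25 (adjusted p = 0.0702). None of these 6 was DE in females, where their log2 fold changes were all negative. The clustered protocadherins, adhesion genes whose copies are chosen cell by cell, had 57 tested members, of which 49 had negative values and 5 (Pcdhb2, Pcdhb3, Pcdhga2, Pcdhga3 and Pcdhgb6) were DE and lower, with a median of -0.22, while 0.649% of all genes tested were DE and lower. The gene models of Pcdhga2, Pcdhga3 and Pcdhgb6 overlap, and reads of the overlap cannot be assigned to a single gene. In females the median of the protocadherins was -0.14 and none was DE.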
